A study of Mus musculus with 12 samples.

Results

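Interferons are cytokines that switch on a broad set of antiviral and immune genes, the interferon-stimulated genes. A list of 39 mouse genes induced by type I or type II interferon was followed in CD4 T cells sorted from kidney, out of 52632 genes in the deposited expression table. The genes were matched by symbol. All 39 were found, were above 0 in each of the 12 libraries and had a mean of at least 1 FPKM, the level required for testing. FPKM, a fragment count scaled to gene length and library size, is a level per length and so allows genes to be compared with each other.

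The study paired renal ischemia-reperfusion injury (IRI) with deletion of Keap1, which encodes the adaptor that holds the antioxidant transcription factor NRF2 at a low level. All mice had the C57BL6/J background. WT animals were bought from a commercial supplier and CD4 Keap1 KO animals, called KO here, were bred by the investigators, so genotype and source of the animals cannot be told apart. In the IRI groups both renal pedicles were clamped for 30 minutes and the kidneys were taken 24 hours later; control mice were separate animals of each genotype, and the labels do not say whether they had sham surgery. CD4 T cells were flow sorted from kidney mononuclear cells, and stranded total RNA libraries for low input were made in 3 replicates for each of 4 groups (WT control, WT IRI, KO control and KO IRI). The labels do not say whether a library came from 1 animal or a pool, nor which driver or cells the deletion was made with beyond the name CD4 Keap1 KO. The p-values therefore measure the spread between these libraries.

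Keap1 measured 8.50, 8.996 and 9.87 FPKM in WT controls, 8.80, 6.31 and 6.03 in WT IRI, 6.61, 5.75 and 7.77 in KO controls and 6.28, 5.95 and 4.59 in KO IRI. The KO controls lay below the WT controls and the IRI groups overlapped, and since the deleted part is not given, a level over the whole gene does not check the genotype. Total FPKM varied between 739969 and 2089551 across libraries, and read depth is unknown because the deposited values cannot be turned back into reads. An earlier analysis of these data had described 3 libraries as standing apart, the third replicate of each WT group (control and IRI) and the first KO control, and counts are given below with and without them. The median tested gene was 0.30 higher on the log2 scale in KO than in WT controls and 0.26 higher after IRI, so each genotype comparison is also given after the libraries were rescaled to a common median ratio, which left 0.01 and 0.02.

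Type I interferons act through a receptor whose signal brings STAT2 and IRF9 to the interferon-stimulated response element (ISRE). Type II interferon acts mainly on the gamma-activated site (GAS). The products fall into sensors of viral nucleic acid, transcription factors that carry or amplify the signal, and effectors that block viral or intracellular pathogen growth. In T cells the same genes are commonly read as a sign of exposure to interferon.

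The promoter sequences below belong to the 5 genes that fell in WT and held a motif match in a RefSeq promoter, with Isg15 as a classical ISRE gene and Irf1 as a gene that did not fall. Each line holds the 150 bases before the RefSeq transcription start on build GRCm38.p6, 5′ to 3′ on the strand of the gene. Capitals mark each match to GAAANNGAAA (ISRE) or TTCNNNGAA (GAS), searched on both strands, and overlapping matches run together.
Oas3 (chr5:120777660-120777809, minus strand): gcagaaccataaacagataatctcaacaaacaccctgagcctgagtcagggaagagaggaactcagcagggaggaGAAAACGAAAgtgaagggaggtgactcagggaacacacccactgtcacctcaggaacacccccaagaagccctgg
Ifit1 (chr19:34640739-34640888, plus strand): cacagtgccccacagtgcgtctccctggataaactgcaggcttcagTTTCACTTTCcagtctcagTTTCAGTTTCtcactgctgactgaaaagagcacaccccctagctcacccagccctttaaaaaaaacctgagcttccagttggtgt
Isg15 (chr4:156200819-156200968, minus strand): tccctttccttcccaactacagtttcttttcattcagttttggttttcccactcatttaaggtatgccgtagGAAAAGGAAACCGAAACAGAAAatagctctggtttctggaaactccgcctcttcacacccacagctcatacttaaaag
Gbp2 (chr3:142620513-142620662, plus strand): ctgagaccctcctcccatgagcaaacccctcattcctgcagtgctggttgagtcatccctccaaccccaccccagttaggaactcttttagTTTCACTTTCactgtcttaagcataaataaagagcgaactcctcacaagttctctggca
Bst2 (chr8:71537473-71537622, minus strand): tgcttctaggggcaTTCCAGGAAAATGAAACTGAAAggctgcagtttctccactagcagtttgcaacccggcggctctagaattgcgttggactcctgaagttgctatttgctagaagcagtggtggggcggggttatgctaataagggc
Isg20 (chr7:78913274-78913423, plus strand): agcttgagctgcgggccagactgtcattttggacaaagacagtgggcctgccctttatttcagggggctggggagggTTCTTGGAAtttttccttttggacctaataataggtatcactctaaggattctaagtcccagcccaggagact
Irf1 (chr11:53769864-53770013, plus strand): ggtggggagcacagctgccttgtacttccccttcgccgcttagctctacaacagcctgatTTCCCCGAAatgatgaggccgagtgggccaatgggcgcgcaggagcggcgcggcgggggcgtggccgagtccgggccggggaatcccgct

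Oas3 and Gbp2 held 1 ISRE match each in these windows, Ifit1 held 2 and Isg15 held 3 overlapping ones. Bst2 held 2 ISRE matches that overlap each other and a GAS match. Isg20 and Irf1 held a GAS match only. Over the full RefSeq promoter windows, from 250 bases before to 50 after the start, 28 of the 39 genes had an entry. An ISRE match was found in 17 of the 28 (60.7%), against 3.99% of 27025 genes with a promoter and 3.44% of 32851 promoters. A GAS match was found in 8 of the 28 (28.6%), against 9.55% of genes and 8.30% of promoters. There were 4 genes with both (Oas1a, Bst2, Gbp7 and Igtp) and 7 with neither. The median IRI difference of the 17 genes with an ISRE match was -0.87 in WT and -0.64 in KO, and that of the 11 without one was -0.53 in WT and -0.56 in KO. These medians are a description and were not tested.

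After IRI the interferon-stimulated genes were lower in WT CD4 cells almost throughout. The difference between IRI and control in log2(FPKM + 1) was below 0 for 37 of 39 genes, against 48.7% of all genes tested. Its median was -0.70, against 0.00029 for all genes tested, and it ran from -1.97 (Ifi27l2a) to 0.39 (Stat2). By limma with Benjamini-Hochberg adjustment over 19288 genes, 9 of the 39 fell (23.1%), against 2.59% of all tested genes that were lower, and 0 rose, against 1.19%. At an unadjusted p under 0.05 there were 27, against 3473 of all 19288 genes. The 3 IRI libraries lay below the 3 controls without overlap for 29 genes (74.4%), against 14.4% of all genes, and above them for 2, Irf1 and Stat2, against 9.28%. The pseudocount of 1 makes the log2 differences of the genes at low FPKM smaller than their ratios.

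In KO cells the genes were lower too. The difference was below 0 for 36 of 39, against 51.6% of all genes, with a median of -0.62 against -0.019 for all genes. In limma 3 genes fell (7.69%), against 0.539% of all genes, and 0 rose, against 0.327%. At an unadjusted p under 0.05 there were 21 of the 39, against 2696 of all 19288 genes. Non-overlapping groups were seen for 17 genes (43.6%), against 9.15% of all genes. The difference was below 0 in both genotypes for 36 genes. Of the genes lower without overlap, 14 were so in both genotypes, 48.3% of the WT list and 82.4% of the KO list. The 48.3% stands beside 43.6% of the 39 genes in KO, and the 82.4% beside 74.4% in WT. The shares of all genes below 0 in both genotypes, or lower without overlap in both, were not counted. All 6 IRI libraries lay below all 6 control libraries for 6 genes, Zbp1, Oas1a, Oas3, Mx1, Bst2 and Xaf1, against 2.19% of all genes.

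Averaged over genotype, which uses all 12 libraries, 23 of 39 genes fell after IRI (59.0%), against 6.03% of all genes, and 0 rose, against 3.01%, with a median difference of -0.68. After rescaling, 24 fell, against 7.33%, and 1 rose (Irf1), against 6.35%. Rescaling gave 14 lower genes in WT, against 4.68%, and 4 in KO, against 1.1%. Without the 3 libraries described earlier as standing apart, the medians were -0.61 in WT, -0.53 in KO and -0.55 averaged, but 0 genes passed in WT (0.508% of all genes), 0 in KO (0.13%) and 9 in the average (2.69%).

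**Figure D1:**
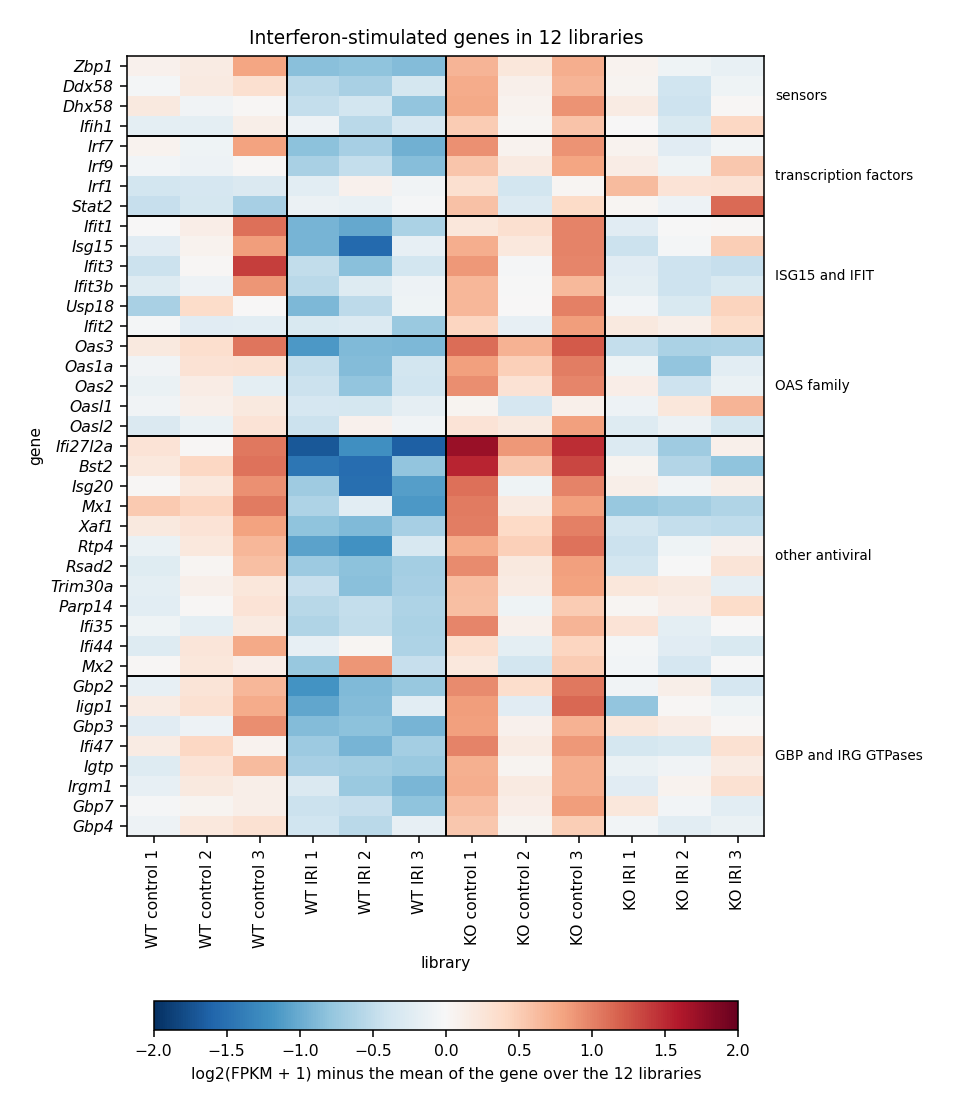
Level of the 39 genes (rows, grouped by role) in the 12 libraries (columns), as log2(FPKM + 1) minus the mean of the gene over the libraries, with blue below and red above that mean. The WT IRI columns are mostly blue and KO control 1 and 3 mostly red, while Irf1 and Stat2 differ from the other rows.

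**Figure D2:**
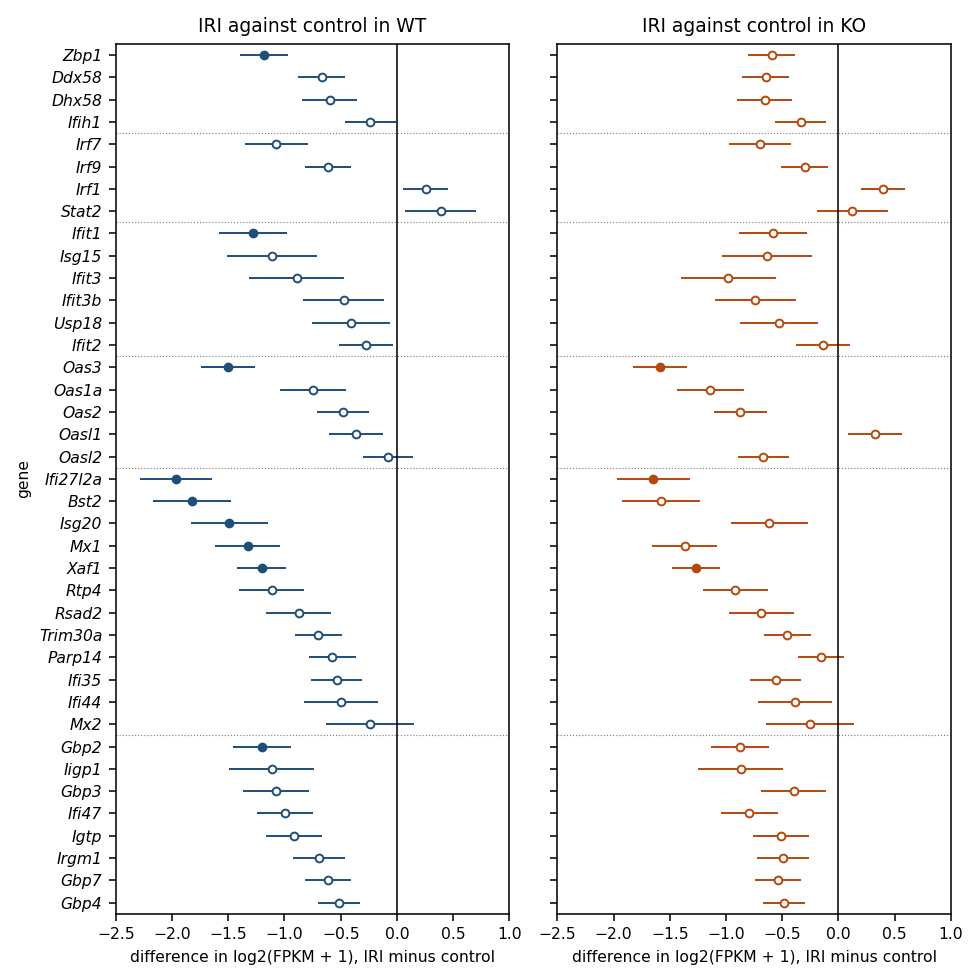
Difference in log2(FPKM + 1) between IRI and control for each gene in WT (left) and KO (right), with its standard error from limma (n = 3 libraries a group); filled points had an adjusted p under 0.05. In WT 37 of 39 points lie below 0 and 9 are filled, and in KO 36 lie below 0 and 3 are filled.

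The sensors of viral nucleic acid were below control in all 4 cases in both genotypes, and Zbp1 passed in WT. Zbp1, a sensor of Z-form nucleic acid that can trigger necroptosis, measured 33.2, 35.2 and 54.5 FPKM in WT controls and 17.01, 17.5 and 16.7 FPKM in WT IRI. The WT IRI libraries were close to each other and all below the lowest control. The difference was -1.18 ± 0.21 (SE, limma, adjusted p = 0.0137). In KO Zbp1 measured 50.5, 36.5 and 52.1 FPKM in KO controls and 32.98, 29.3 and 28.1 FPKM in KO IRI, again without overlap, and the difference of -0.59 ± 0.21 did not pass (adjusted p = 0.234). Ddx58, which encodes the RNA sensor RIG-I, measured 31.8, 36.8 and 40.8 FPKM in WT controls and 22.03, 20.3 and 25.3 FPKM in WT IRI. It measured 54.7, 34.8 and 52.6 FPKM in KO controls and 33.9, 24.4 and 30.5 FPKM in KO IRI. Neither genotype overlapped for Ddx58, and the differences of -0.67 ± 0.21 in WT and -0.65 ± 0.21 in KO passed when averaged (-0.66, adjusted p = 0.0206). Dhx58, encoding the RIG-I relative LGP2, also passed in the average (-0.63, adjusted p = 0.0476), and Ifih1, encoding the RNA sensor MDA5, did not (-0.29, adjusted p = 0.316).

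The 4 transcription factors did not move together. Irf7, which amplifies type I interferon production, measured 32.2, 28.8 and 54.6 FPKM in WT controls and 17.02, 19.00 and 15.4 FPKM in WT IRI. It measured 58.9, 32.2 and 58.03 FPKM in KO controls and 32.2, 26.2 and 29.6 FPKM in KO IRI. In WT the groups did not overlap and in KO the highest IRI library was only just below the lowest control. Irf7 fell in the average over genotype (-0.88 ± 0.20, SE, limma adjusted p = 0.0198) and not within WT (-1.07 ± 0.28, adjusted p = 0.064). Irf9, the DNA-binding partner of STAT2, measured 25.03, 24.2 and 26.6 FPKM in WT controls and 16.3, 18.6 and 14.01 FPKM in WT IRI. It measured 38.7, 29.8 and 45.8 FPKM in KO controls and 29.2, 24.7 and 38.4 FPKM in KO IRI. WT groups did not overlap, KO groups did, and the average difference of -0.46 did not pass (adjusted p = 0.0831).

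Stat2 and Irf1 were the exceptions of the list, lying above control in both genotypes as deposited, though in KO both were below 0 (-0.29 and -0.03) when libraries were scaled to a common sum, a scaling that put the median of all genes at -0.35. Irf1, a factor induced by interferon gamma and by inflammatory cytokines and the most abundant of the 39 genes, with a mean of 91.6 FPKM, measured 69.2, 70.7 and 73.3 FPKM in WT controls and 76.8, 94.6 and 84.8 FPKM in WT IRI. It measured 112, 69.02 and 92.2 FPKM in KO controls and 138, 108 and 109.8 FPKM in KO IRI. In WT every IRI library was above every control, and in KO 2 IRI libraries lay below KO control 1. The differences of 0.26 ± 0.20 and 0.40 ± 0.20 did not pass, and the average of 0.33 passed only after rescaling (0.41, adjusted p = 0.0298, against 0.188 as deposited). Stat2, which carries the type I interferon signal, measured 19.1, 20.7 and 16.4 FPKM in WT controls and 24.3, 23.8 and 26.1 FPKM in WT IRI. It measured 40.3, 21.7 and 34.7 FPKM in KO controls and 27.3, 24.7 and 59.1 FPKM in KO IRI. WT groups did not overlap, and KO IRI 3 was above every other library. Irf1 overlaps Gm17334 and Irf7 overlaps Phrf1 on the opposite strand, and Irf9 overlaps Rnf31 on the same strand, so their levels may hold reads of those genes. The Stat2 differences of 0.39 ± 0.32 in WT and 0.13 ± 0.32 in KO did not pass (adjusted p = 0.59 and 0.899).

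Of the ISG15 system and the IFIT proteins, 6 genes in all, each was below control in both genotypes and 1 passed, Ifit1 in WT, where 2.59% of all genes fell. Ifit1, which binds viral RNA that lacks cap methylation, measured 4.65, 5.18 and 11.1 FPKM in WT controls and 1.94, 1.78 and 2.62 FPKM in WT IRI. All WT IRI libraries were below all controls, and WT control 3 was well above the other controls. The difference was -1.28 ± 0.30 (SE, limma, adjusted p = 0.044). In KO it measured 5.60, 6.04 and 10.2 FPKM in KO controls and 3.82, 4.60 and 4.73 FPKM in KO IRI, without overlap, with a difference of -0.58 ± 0.30 (adjusted p = 0.424). Isg15, a ubiquitin-like protein that is conjugated to newly made proteins, measured 4.05, 5.26 and 9.63 FPKM in WT controls and 2.11, 1.03 and 4.29 FPKM in WT IRI. It measured 8.82, 5.91 and 10.9 FPKM in KO controls and 3.41, 4.80 and 7.38 FPKM in KO IRI. The groups overlapped in both genotypes, since WT IRI 3 was above WT control 1 and KO IRI 3 above KO control 2. The Isg15 differences of -1.11 ± 0.40 and -0.64 ± 0.40 did not pass.

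Ifit2, a relative of Ifit1, measured 12.8, 11.2 and 11.3 FPKM in WT controls and 10.6, 10.9 and 7.56 FPKM in WT IRI, with differences of -0.27 ± 0.24 in WT and -0.14 ± 0.24 in KO. It measured 18.2, 11.7 and 24.5 FPKM in KO controls and 15.3, 14.5 and 17.4 FPKM in KO IRI. The WT groups did not overlap and the KO groups did. Usp18, the protease that removes ISG15 and dampens the type I receptor, had differences of -0.41 and -0.53, and Ifit3 had -0.89 and -0.98, none past the threshold. Ifit3 and Ifit3b are near copies: 58.5% of the 36-base words of the longest Ifit3 transcript occur in Ifit3b, so how reads were split between them is uncertain. Ifit3b had the lowest mean of the 39, 1.08 FPKM.

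The OAS family makes or resembles the enzymes that activate RNase L, which degrades viral RNA. Oas3 fell in both genotypes and was the gene with the smallest adjusted p of the 39 in each. The gene (ENSMUSG00000032661.9) lies at chr5:120753098-120777661 on the minus strand of GRCm38 in GENCODE M21. It measured 7.18, 8.002 and 14.1 FPKM in WT controls and 2.25, 2.90 and 2.85 FPKM in WT IRI. In KO it measured 14.5, 10.6 and 15.8 FPKM in KO controls and 4.15, 3.64 and 3.66 FPKM in KO IRI. Every IRI library of either genotype was below every control, and the group means after IRI were 27.3% of control in WT and 28.0% in KO. The differences were -1.50 ± 0.24 (adjusted p = 0.00862) and -1.59 ± 0.24 (adjusted p = 0.0172, both limma). Oas1a measured 1.02, 1.61 and 1.62 FPKM in WT controls and 0.526, 0.163 and 0.643 FPKM in WT IRI. It measured 2.76, 1.97 and 3.31 FPKM in KO controls and 0.995, 0.228 and 0.830 FPKM in KO IRI. The Oas1a libraries after IRI also all lay below all controls, with KO IRI 1 only just so, and its differences of -0.75 ± 0.30 and -1.14 ± 0.30 passed in the average (-0.94, adjusted p = 0.0196). Oas1a shares 65.7% of its 36-base words with Oas1g, so its level may hold reads of that copy. Oas2 also fell in the average (-0.68, adjusted p = 0.0292). The OAS-like genes did not pass: Oasl1 had -0.37 in WT and 0.33 in KO, and Oasl2 -0.08 and -0.67.

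The widest changes lay among the other antiviral effectors, where 5 of 12 genes fell in WT, 2 of 12 in KO and 8 of 12 in the average. The shares of all genes that fell were 2.59%, 0.539% and 6.03%. Ifi27l2a, a small membrane protein strongly induced by interferon and second of the 39 in mean level, measured 48.3, 40.6 and 83.3 FPKM in WT controls and 11.6, 16.5 and 12.2 FPKM in WT IRI. It measured 133, 73.1 and 112 FPKM in KO controls and 32.8, 23.97 and 42.6 FPKM in KO IRI. The gene (ENSMUSG00000079017.3) lies at chr12:103442167-103443680 on the minus strand. In each genotype all IRI libraries were below all controls, though KO IRI 3 was above WT control 2. The group mean after IRI was 23.3% of control in WT and 31.2% in KO. The differences were -1.97 ± 0.32 (adjusted p = 0.00943) and -1.64 ± 0.32 (adjusted p = 0.0481, both limma).

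Bst2 encodes tetherin, which holds budding virus at the cell surface and is known as a plasmacytoid dendritic cell marker in mouse. The gene (ENSMUSG00000046718.8) lies at chr8:71534255-71537456 on the minus strand. It measured 7.65, 8.98 and 14.8 FPKM in WT controls and 1.74, 1.60 and 3.33 FPKM in WT IRI. In KO it measured 20.4, 9.85 and 17.9 FPKM in KO controls and 6.76, 3.99 and 3.29 FPKM in KO IRI. All 6 IRI libraries were below all 6 controls, and the WT mean after IRI was 21.2% of control, the lowest of the 39. The differences were -1.82 ± 0.35 in WT (limma, adjusted p = 0.0191) and -1.58 ± 0.35 in KO (adjusted p = 0.0647), so the KO difference did not pass. Summed FPKM of the 6 markers listed for plasmacytoid dendritic cells was 26.0 to 35.1 in WT controls, 19.96 to 29.4 in WT IRI, 35.3 to 41.2 in KO controls and 30.0 to 51.1 in KO IRI, with none of the 6 at 0 in every library. One of the 6, Klk1, a kallikrein also made by kidney, measured 0.269, 25.4 and 30.5 FPKM in KO IRI, and it was set aside after its values were seen. The other 5 summed to 22.04 to 30.1 in WT controls and 18.8 to 23.2 in WT IRI, which overlapped, and to 31.9 to 40.5 in KO controls and 18.9 to 29.7 in KO IRI, which did not. In WT the difference after IRI was below 0 for 4 of the 6. Of these 1, Ccr9, was lower without overlap, against 14.4% of all genes, and passed (-1.13, limma adjusted p = 0.0472), against 2.59%. In KO the difference was below 0 for 5 of the 6, with 3 lower without overlap, against 9.15% of all genes, and 0 past the threshold, against 0.539%. In the average over genotype 1 of the 6 fell (limma adjusted p = 0.011), against 6.03% of all genes. The part of such cells in the Bst2 result was not tested.

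Xaf1, a pro-apoptotic factor that antagonises an inhibitor of caspases, measured 13.2, 14.03 and 20.7 FPKM in WT controls and 6.16, 5.77 and 6.84 FPKM in WT IRI. It measured 24.4, 15.5 and 24.1 FPKM in KO controls and 8.64, 7.96 and 7.80 FPKM in KO IRI. Every IRI library was again below every control. Xaf1 fell in WT (-1.20 ± 0.21, limma adjusted p = 0.0139) and in KO (-1.26 ± 0.21, adjusted p = 0.0276). Mx1, a dynamin-like GTPase that restricts influenza virus and whose protein is not functional in many laboratory strains, measured 7.90, 7.34 and 11.7 FPKM in WT controls and 3.03, 4.32 and 1.78 FPKM in WT IRI. It measured 11.8, 6.02 and 9.93 FPKM in KO controls and 2.65, 2.83 and 3.09 FPKM in KO IRI. The groups did not overlap in either genotype. Mx1 fell in WT (-1.33 ± 0.29, adjusted p = 0.0321) and had -1.37 ± 0.29 in KO (adjusted p = 0.0579). Isg20, an exonuclease that degrades RNA, measured 10.5, 12.04 and 20.4 FPKM in WT controls and 5.90, 2.97 and 4.26 FPKM in WT IRI. It measured 23.4, 9.69 and 21.6 FPKM in KO controls and 11.3, 9.82 and 11.3 FPKM in KO IRI. The WT groups were well apart, while KO control 2 lay below all KO IRI libraries. Isg20 fell in WT (-1.49 ± 0.34, adjusted p = 0.0401) and had -0.62 ± 0.34 in KO (adjusted p = 0.459).

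Of the other 7 effectors, Rtp4, Rsad2 (viperin) and Trim30a fell in the average over genotype (-1.02, -0.78 and -0.58). Ifi35, Parp14, Ifi44 and Mx2 did not pass, with average differences of -0.55, -0.37, -0.44 and -0.24. Mx2 is annotated as a polymorphic pseudogene. Ifi35 lies over an antisense gene, and with the strand setting of the counting not given in the sources used here, reads of the 2 genes cannot be told apart.

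The guanylate-binding proteins and immunity-related GTPases, which act on vacuoles that hold intracellular pathogens and are typical targets of interferon gamma, were lower in both genotypes. All 8 were lower without overlap in WT, against 14.4% of all genes, and 2 of the 8 in KO, against 9.15%. By limma 1 of the 8 fell in WT, against 2.59% of all genes, and 0 in KO, against 0.539%. In the average 7 of 8 fell, against 6.03% of all genes, Gbp3 being the exception (-0.74, adjusted p = 0.0514). Gbp2 measured 11.1, 15.2 and 20.5 FPKM in WT controls and 4.90, 6.37 and 7.01 FPKM in WT IRI. In KO it measured 25.2, 16.3 and 27.2 FPKM in KO controls and 11.9, 13.8 and 9.71 FPKM in KO IRI. No IRI library of Gbp2 overlapped the controls of its own genotype. Gbp2 fell in WT (-1.20 ± 0.26, limma adjusted p = 0.0311) and had -0.88 ± 0.26 in KO (adjusted p = 0.152). Ifi47 measured 39.5, 47.4 and 37.2 FPKM in WT controls and 20.9, 18.1 and 21.6 FPKM in WT IRI. It measured 71.1, 39.4 and 65.2 FPKM in KO controls and 27.5, 28.3 and 43.7 FPKM in KO IRI. WT groups were apart, and in KO the highest IRI library was above KO control 2. Ifi47 had -0.995 ± 0.25 in WT (adjusted p = 0.0565) and fell in the average (-0.89, adjusted p = 0.0115). Igtp, Irgm1, Iigp1, Gbp4 and Gbp7 fell in the average by 0.50 to 0.99 on the log2 scale. Gbp4 shares 19.3% and Igtp 15.1% of their 36-base words with related genes.

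**Figure D3:**
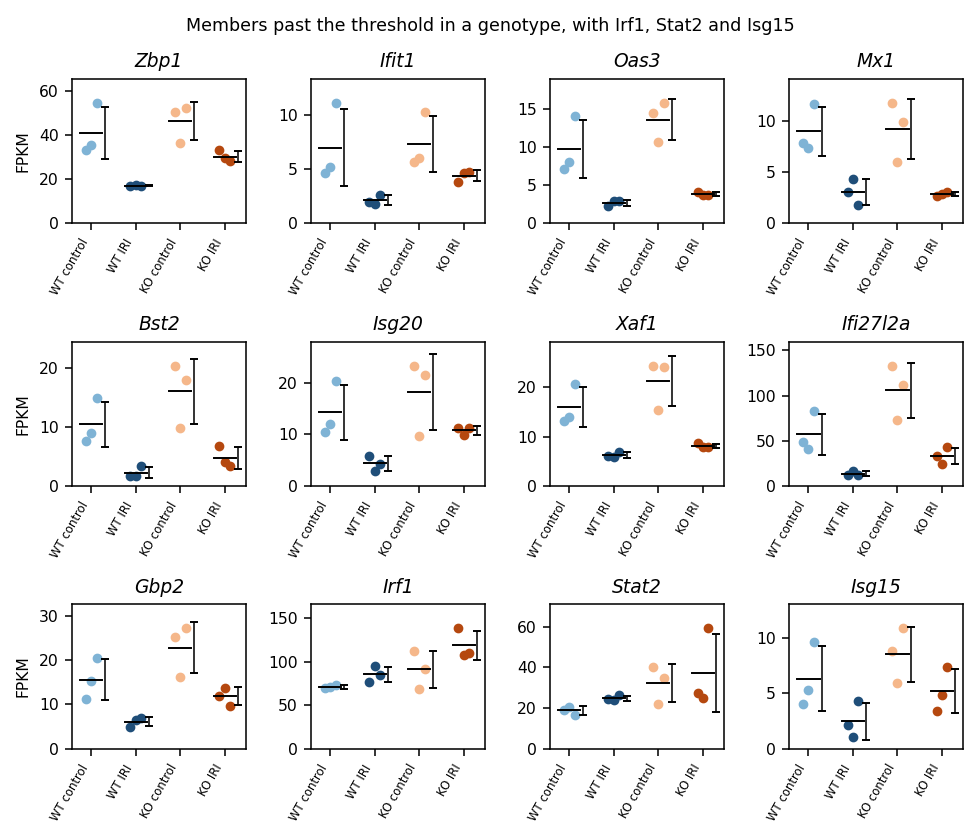
Deposited FPKM in each library (points, 3 a group) with the group mean (horizontal line) and SD (bar) for the 9 genes past the threshold in WT and for Irf1, Stat2 and Isg15. Oas3, Bst2, Mx1 and Xaf1 show all IRI points below all control points, whereas Irf1 and Stat2 lie higher after IRI in WT.

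The number of genes that passed depended on single libraries. In WT 9 genes became 4 without WT control 2 and 3 without WT control 3, WT IRI 1 or WT IRI 2, against 0.871% to 1.32% of all genes in these settings. In KO 3 became 1 without WT control 2, WT IRI 1 or WT IRI 2, 0 without KO control 1, KO control 3, KO IRI 2 or KO IRI 3, against 0.124% to 0.29% of all genes, and 12 without KO control 2, against 2.89%. KO control 2 was the lowest KO control for 38 of the 39 genes, and WT control 3 was the highest WT control for 31. These shares were not counted over all genes. The median of all tested genes was also lowest in KO control 2, at 2.62 (log2) against 2.92 and 2.73 in the other KO controls. In WT control 3 that median was 2.48, against 2.51 and 2.59 in the other WT controls. The 23 genes of the average became 9 when KO control 3 was left out. They became 10 on leaving out KO IRI 2, 11 for WT IRI 2 and 12 for KO control 1. Leaving out WT control 2 or 3 gave 14, and leaving out WT IRI 1 or KO IRI 3 gave 15. In these 8 settings 3.5% to 4.64% of all genes fell. The median difference stayed below 0 under each of these settings, between -0.91 and -0.51 in WT and between -0.97 and -0.45 in KO over the alternatives run.

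The levels of the genes varied together from library to library. Each gene was set against the mean of the other 38 over the 12 libraries on the rescaled log2 scale, points that share group, library and scaling. The median r was 0.87, with 27 genes at 0.8 or above. Stat2 (-0.18) and Irf1 (-0.51) were below 0. With group means taken out, the median r was 0.71 and the range 0.13 to 0.92, so libraries also differed within groups in the level of the list as a whole. The same r was not computed for other genes, so it cannot be said whether this was particular to the list. The median level of the list was 3.27, 3.56 and 4.01 (log2) in WT controls, 2.79, 2.76 and 2.99 in WT IRI, 4.26, 3.56 and 4.43 in KO controls and 3.35, 3.25 and 3.42 in KO IRI. All 6 IRI libraries had a median of at most 3.42, while WT control 1 was at 3.27 and so was within that range.

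T cell transcripts moved with the same comparison. The summed FPKM of 7 T cell markers (Cd3e, Cd3d, Cd3g, Cd4, Trac, Lck and Cd5) was 1210 to 1346 in WT controls and 525 to 585 in WT IRI. It was 1501 to 2296 in KO controls and 1039 to 1399 in KO IRI. By limma 5 of the 7 fell in WT (median difference -1.26) and 1 of 7 in KO (-0.75), against 2.59% and 0.539% of all genes. None of the 7 was at 0 in every library, and their median differences stand beside -0.70 and -0.62 for the interferon-stimulated genes. The summed level of 6 neutrophil markers was 3.26 to 4.53 FPKM in WT controls and 16.3 to 36.5 in WT IRI, and in KO 2.66 to 4.76 and 2.84 to 31.9. Most of the WT IRI sums was S100a8 (7.37 to 13.8), S100a9 (3.34 to 17.8) and Retnlg (1.22 to 4.75), while Csf3r, Cxcr2 and Camp overlapped WT controls. Of the 5 tested, 1 rose in WT, against 1.19% of all genes, and 0 in KO, against 0.327%. The 6 CD8 T and NK cell markers summed to 87.1 to 122 in WT controls and 23.6 to 28.0 in WT IRI, and to 75.5 to 121 and 20.5 to 30.8 in KO. Nkg7 was the largest part of these sums, at 65.0 to 99.4 FPKM in WT controls and 12.6 to 14.1 in WT IRI, and 52.3 to 84.7 and 8.88 to 19.1 in KO. All 6 were below control in both genotypes. In WT 1 of the 6 fell, against 2.59% of all genes, and in KO 2, against 0.539%. Conventional dendritic cell markers summed to 12.5 to 16.3 in WT controls and 7.77 to 9.75 in WT IRI, and to 17.2 to 38.9 and 8.88 to 13.8 in KO. Of these 6, 0 fell in WT, against 2.59% of all genes, and 1 in KO, against 0.539%. Macrophage and monocyte markers summed to 72.3 to 154 in WT controls and 100.4 to 140.5 in WT IRI, and to 142 to 311 and 84.7 to 204 in KO. Of these 9, 7 were below control and 2, Cd14 and Itgam, above it in each genotype. Itgam measured 1.83 to 4.53 FPKM in WT controls and 6.61 to 19.7 in WT IRI. By limma 0 of the 9 fell in WT, against 2.59% of all genes, and 1 in KO, against 0.539%, and 0 rose. The 5 B cell markers summed to 8.71 to 45.9 in WT controls and 4.18 to 13.5 in WT IRI, and to 20.5 to 80.7 and 3.95 to 7.77 in KO. In KO all 5 were lower after IRI without overlap, against 9.15% of all genes (median difference -2.001, 0 past the threshold). In the average over genotype 3 of the 5 fell, against 6.03% of all genes. The 5 proximal tubule markers summed to 3.92 to 53.2 in WT controls and 1.55 to 42.4 in WT IRI, and to 2.49 to 142.9 and 4.16 to 256.6 in KO. Kap, 1 of them, reached 40.7 FPKM in WT control 3, 36.3 in WT IRI 1, 128.8 in KO control 2 and 239.9 in KO IRI 3. The 5 endothelial markers summed to 24.0 to 38.7 in WT controls and 24.4 to 31.5 in WT IRI, and to 33.4 to 52.0 and 35.5 to 41.8 in KO. None of the listed markers of these types was at 0 in every library. Fewer cells of a type and less RNA per cell cannot be told apart in sorted bulk RNA, and the part of these shifts in the interferon result was not tested.

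**Figure D4:**
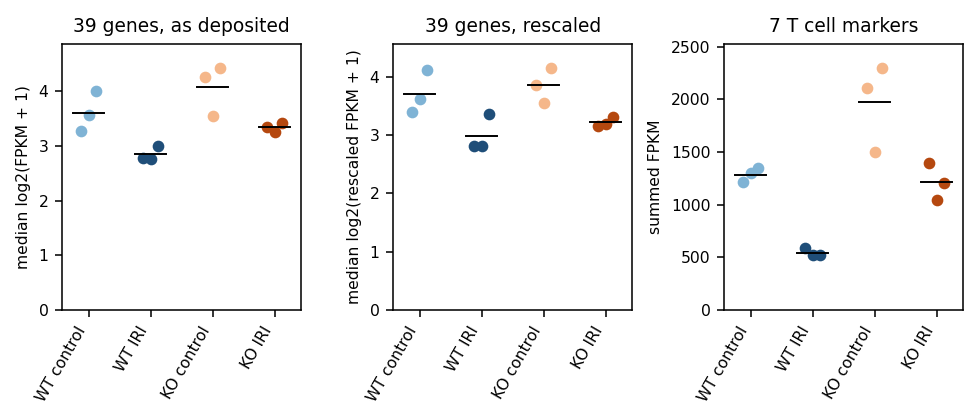
Median log2(FPKM + 1) of the 39 genes in each library as deposited (left) and after median-ratio rescaling (centre), and summed FPKM of the 7 T cell markers (right); points are libraries and lines group means. All 3 panels are lower in IRI than in control on average, with T cell marker sums of 525 to 585 in WT IRI.

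Whether the injury response differed between genotypes was tested as an interaction, and 0 of the 39 genes passed, against 0.00518% of all genes that were lower and 0.0% that were higher. At an unadjusted p under 0.05 there were 0, against 646 of all 19288 genes, or 1 after rescaling, against 940. The smallest adjusted p of the 39 was 0.999 as deposited. The widest interaction was that of Isg20 (0.87 ± 0.49), the IRI difference being less negative in KO, followed by Ifit1 (0.69 ± 0.43) and Oasl1 (0.69 ± 0.34). Oasl2 had the lowest (-0.59 ± 0.32). With standard errors of this size, differences between the genotypes of the order seen for Isg20 were not detectable. The larger number of genes that passed in WT than in KO does not show that the genotypes differ.

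Between KO and WT controls 0 of the 39 genes passed in either direction, against 0.0259% of all genes that were higher. In controls the difference between KO and WT was above 0 for 36 genes and below 0 for 3, while 28.2% of all genes were below 0. The median was 0.45, beside 0.30 for all genes. At an unadjusted p under 0.05 there were 7 of the 39, against 4022 of all 19288 genes. After rescaling the median was 0.12, with 27 above 0 and 12 below, while 46.8% of all genes were below 0. Then 1 of the 39 had an unadjusted p under 0.05, against 2129 of all genes. Neither share at that level exceeded the share of all genes. KO libraries lay above WT without overlap for 5 genes (12.8%), Stat2, Irf9, Oas1a, Oas2 and Gbp7, against 20.1% of all genes. That share is below the background. KO control 2 was the lowest KO control for 38 of the 39 genes, and also the lowest KO control in the median of all tested genes. Without it 5 genes passed as higher, against 7.33% of all genes.

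After IRI 0 of the 39 passed as higher in KO, against 0.0518% of all genes. The difference was above 0 for 36 genes and below 0 for 3, while 31.5% of all genes were below 0. The median was 0.56, beside 0.26 for all genes. At an unadjusted p under 0.05 there were 22 of the 39, against 4324 of all 19288 genes. After rescaling the median was 0.32, with 32 above 0 and 7 below, while 47.0% of all genes were below 0. Then 9 of the 39 had an unadjusted p under 0.05, against 3179 of all genes. With libraries scaled to a common sum the median was -0.04, beside -0.27 for all genes. KO libraries were above WT without overlap for 21 genes (53.8%), against 24.9%. Zbp1 was an example, at 32.98, 29.3 and 28.1 FPKM in KO and 17.01, 17.5 and 16.7 in WT (0.78 ± 0.21, or 0.50 ± 0.19 rescaled, adjusted p = 0.107 and 0.242). Ifi27l2a differed by 1.22 ± 0.32 and Isg20 by 1.17 ± 0.34, with 0.94 ± 0.29 and 0.91 ± 0.30 after rescaling. Mx1 differed by -0.02 ± 0.29. The sums of T cell markers after IRI were also higher in KO, at 1039 to 1399 against 525 to 585, and their part in these differences was not tested. Without KO control 2, which enters only the shared estimate of the spread here, 2 genes passed, against 2.52% of all genes.

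Averaged over control and IRI, 10 of the 39 were higher in KO (25.6%), against 11.9% of all genes, and 0 were lower, against 1.76%. They were Irf9, Ifi27l2a, Trim30a, Ifi35, Gbp2, Irgm1, Oas2, Gbp7, Parp14 and Ifit2, with differences from 0.52 (Parp14 and Gbp7) to 1.06 (Ifi27l2a). The count depends on the scale: after rescaling 0 passed, against 0.378% of all genes. At an unadjusted p under 0.05 there were then 7 of the 39, against 4125 of all 19288 genes, so the list did not exceed that share. Irf9 went from 0.71 ± 0.15 (adjusted p = 0.0279) to 0.40 ± 0.12 (adjusted p = 0.0934) and Ifi27l2a from 1.06 ± 0.23 (adjusted p = 0.0286) to 0.75 ± 0.20 (adjusted p = 0.0791). Without KO control 2 the 10 became 27, while the share of all genes went from 11.9% to 25.5%. Leaving out WT control 3 gave 5 genes (2.48% of all genes), leaving out WT IRI 1 gave 4 (8.47%), and leaving out either WT IRI 2 or KO IRI 2 gave 2 (5.37% and 5.03%). The number was 0 without each of the other 7 (WT control 1, WT control 2, WT IRI 3, KO control 1, KO control 3, KO IRI 1 and KO IRI 3), with 0.156% to 1.95% of all genes, and 0 without the 3 libraries described as standing apart (0.119%). Of the 7 T cell markers 7 were higher in KO in the same comparison (median difference 0.73), and 2 after rescaling (0.41), and their part in the interferon result was not tested.

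**Figure D5:**
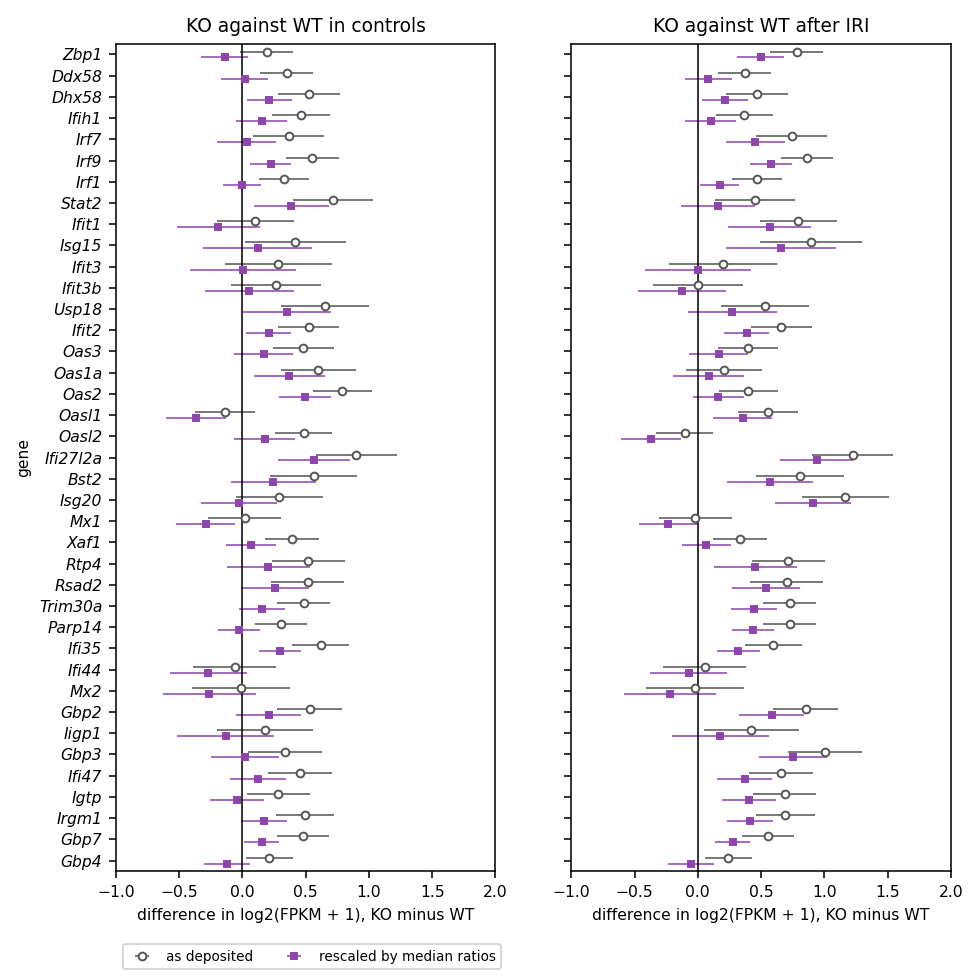
Difference in log2(FPKM + 1) between KO and WT in controls (left) and after IRI (right) for each gene, as deposited (open circles) and after median-ratio rescaling (squares), with standard errors from limma (n = 3 libraries a group). Rescaling moves the points toward 0, from a median of 0.45 to 0.12 in controls and from 0.56 to 0.32 after IRI.

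The rest of the pathway was read from 2 lists of related genes, and the 4 genes of each with the smallest p in any comparison are named. Over all genes 2.59% fell and 1.19% rose in WT, 0.539% and 0.327% in KO, and 6.03% and 3.01% in the average. Of 59 tested genes in a list of other interferon-induced genes, 15 fell and 1 rose in WT, 3 fell and 0 rose in KO, and 30 fell and 2 rose in the average. The median in WT was -0.78. Epsti1, an interferon-induced gene named for epithelial-stromal interaction, measured 48.1, 51.2 and 55.2 FPKM in WT controls and 15.7, 15.9 and 15.6 FPKM in WT IRI. KO libraries measured 81.00, 59.03 and 78.7 FPKM in KO controls and 35.9, 28.5 and 31.2 FPKM in KO IRI. The differences were -1.65 ± 0.16 in WT (limma, adjusted p = 0.00139) and -1.16 ± 0.16 in KO (adjusted p = 0.0111). Ifi208 and Ifi203, both of the HIN-200 family linked to DNA sensing, fell in WT with differences of -1.05 and -1.16, and Gbp8 with -1.07. Gbp8 overlaps Gbp4 in the annotation.

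The second list, read against the same shares, held 26 tested genes among the interferons, receptors and signalling factors, of which 5 fell and 1 rose in WT, 2 fell and 1 rose in KO, and 8 fell and 3 rose in the average. Tbx21, the T-bet factor that drives the interferon gamma program of Th1 cells, measured 31.1, 31.4 and 29.9 FPKM in WT controls and 7.36, 5.32 and 5.59 FPKM in WT IRI. Its KO libraries measured 29.5, 23.01 and 22.9 FPKM in KO controls and 8.15, 5.78 and 7.25 FPKM in KO IRI. It fell in both genotypes, with differences of -2.18 ± 0.18 in WT and -1.70 ± 0.18 in KO (limma adjusted p = 0.000629 and 0.00405). Il12rb1, a receptor chain for IL-12 and IL-23, had -1.86 ± 0.31 in WT (adjusted p = 0.0111), and Irf8, a factor of the interferon response, -1.12 ± 0.26 in WT (adjusted p = 0.0428) and -1.50 ± 0.26 in KO (adjusted p = 0.032). Socs3, an inhibitor of cytokine receptor signalling, went the other way, at 23.2, 20.3 and 29.7 FPKM in WT controls and 128, 153 and 105 FPKM in WT IRI. The KO libraries measured 41.6, 25.96 and 57.3 FPKM in KO controls and 252, 230.5 and 286 FPKM in KO IRI. The differences were 2.35 ± 0.28 in WT (adjusted p = 0.00219) and 2.66 ± 0.28 in KO (adjusted p = 0.00405).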

How the data were processed

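RNA-seq of sorted kidney CD4 T cells was analysed in 12 libraries, 3 in each of 4 groups taken from the titles. The authors deposited 1 table of FPKM values for 52632 gene identifiers. Per the submitters' processing notes, the tools were bcl2fastq 2.17.1.14, TopHat2 2.1.0, Cufflinks 2.2.1 and Partek 7.0 with build GRCm38; their roles, the filters and the strand setting are not given in the sources used here. Gene identifiers were paired with symbols through GENCODE M21 (52399 matched; 74 further genes of a repeated symbol were kept apart). The members and lists were chosen with earlier results of these data known, and the roles were assigned from textbook function. FPKM is adjusted for library size and gene length, so a change in the rest of the transcriptome moves every gene's value, and read depth cannot be recovered from it.

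Values were tested as log2(FPKM + 1) with limma 3.58.1 in R 4.3.3 (lmFit, eBayes with a trend) over the 19288 genes whose mean reached 1 FPKM, with 4 group means in 1 fit, 8 residual degrees of freedom, Benjamini-Hochberg adjustment within each of 7 comparisons and a threshold of 0.05. Values in all libraries were given for each member past the threshold in a comparison of 2 groups, for the 2 members with the smallest p in each role and for 5 members always named. From each related list the 4 genes with the smallest p in any comparison were named. Shared sequence was counted as words of 36 bases, the read length, in the longest transcript. Promoters came from RefSeq. Alternatives were 2 other pseudocounts, 2 filters, 3 scalings, a replicate block, fits to the compared groups alone, and fits without single libraries or 3 named libraries. All libraries carry the same date label, so no batch could be examined.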

Additional observations from a re-analysis of the deposited data

How the results depend on the processing

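Depth is unknown, 3 libraries a group limit the precision, and individual calls changed between alternatives. Of the recomputed values 123 of 198 stayed past the threshold for the 9 genes of WT, 33 of 66 for the 3 of KO, 328 of 480 for the 23 of the average over genotype and 54 of 209 for the 10 of the genotype average. None of these called genes reversed in direction. They were picked as past the threshold in the same libraries, so a reversal was unlikely and its absence does not show that directions are stable. Among genes not called, Stat2 and Irf1 in KO went from 0.13 and 0.40 to -0.29 and -0.03 with libraries scaled to a common sum. With no filter on the mean the genes past the threshold numbered 5 in WT, 1 in KO, 12 in the IRI average and 0 in the genotype average. That setting tested 47501 genes, of which 269 fell in WT, 43 in KO and 704 in the IRI average, and 192 were higher in the genotype average. With libraries scaled to a common sum the members past the threshold numbered 0, 0, 8 and 0. Of all 19288 genes 43, 46 and 828 fell in WT, KO and the IRI average, and 7 were higher in the genotype average. In this scaling the median KO against WT difference of the members after IRI became -0.035 and their median interaction -0.22, beside -0.27 and -0.35 for all genes. The cause was not tested. Fits to the compared groups alone, which use fewer samples, gave 2 in WT and 0 in KO, where 297 and 3 of all 19288 genes fell. Median-ratio rescaling gave 14 in WT and 0 in the genotype average, and quantile normalization 16 and 0. Of all 19288 genes 902 fell in WT and 73 were higher in the genotype average after rescaling, and 1037 and 35 after quantile normalization. A mean of at least 5 FPKM gave 16 of the 31 members it keeps in the genotype average, where 32.3% of all genes it keeps were higher. Without the 3 libraries described earlier as standing apart the counts were 0 in WT, 0 in KO, 9 in the IRI average and 0 in the genotype average. The shares of all genes were 0.508%, 0.13%, 2.69% and 0.119%.

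Leaving out each library in turn gave 3 to 12 genes in WT, 0 to 12 in KO, 9 to 28 in the IRI average, 0 to 5 between genotypes in controls, 0 to 2 after IRI and 0 to 27 in the genotype average. The shares of all genes that fell after IRI were 0.871% to 3.3%, 0.124% to 2.89% and 3.5% to 9.38%. Those of all genes higher in KO were 0.0207% to 7.33%, 0.0% to 2.52% and 0.156% to 25.5%. The highest value of each count and of each share came without KO control 2. The replicate block gave 5 genes in the genotype average in place of 10, 8 in WT, 2 in KO and 19 in the IRI average. Of all 19288 genes 1438 were higher in the genotype average with the block, and 385, 94 and 1065 fell in WT, KO and the IRI average. The titles share replicate numbers across groups, but the deviations of same-numbered libraries correlated at -0.037 to 0.20, with 1 of 18 pairs above 0.1, against -0.15 to 0.12 for other numbers, so the numbers were not taken as pairs.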
